A study of Mus musculus with 9 samples.

Results

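Collagens were described here as a gene family: the 44 protein-coding genes, of 56748 genes in the deposited table, whose symbol has the form of Col, a type number, the letter a and a chain number. No measured value entered that choice. By collagen type, 11 of them encode fibrillar chains, 8 encode chains of basement membranes, and the other 25 comprise 6 beaded-filament chains of type VI, 9 fibril-associated (FACIT) chains, 3 short chains, 4 transmembrane chains and 3 further chains.

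Collagens are triple helices of α chains, and most types are secreted and form much of the extracellular matrix, while the transmembrane types are held in the cell membrane. Fibrillar collagens, above all types I and III, build the tensile network between the cells of the heart and are made mainly by fibroblasts. Type IV collagen is the sheet-forming scaffold of basement membranes, which surround each cardiomyocyte and underlie endothelium, and types XV and XVIII are proteoglycans attached to it. Beaded filaments of type VI link the basement membrane to the interstitial matrix.

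The libraries were bulk RNA sequencing of whole mouse hearts at postnatal day 1, with 3 libraries in each of 3 genotypes. The labels describe CD36KO as a whole-body knockout of Cd36, CD36CKO as a cardiac specific knockout and WT as wild type. The CD36 protein imports long-chain fatty acids across the cell membrane. The sources used here give neither the promoter behind the cardiac deletion nor the strain, the litter or whether a replicate is a separate animal. The p-values therefore rest on the spread among these libraries alone, and that spread may be technical. Messenger RNA was captured by its poly-A tail, and 14409000 to 20725000 reads per library lay behind the values. In bulk tissue, fewer cells of a type and less RNA per cell cannot be told apart. Values are FPKM (fragments divided by gene length and library size), so levels can be compared between genes per unit of length. Differences are on the log2(FPKM + 1) scale, with standard errors (SE), and understate the change of low genes. A gene is said to have risen or fallen where the Benjamini-Hochberg adjusted p from limma, over 12206 genes and with n = 3 libraries per group, was under 0.05.

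The targeted gene, Cd36, stood at 72.4, 64.0 and 60.6 FPKM in CD36KO, 201, 183 and 163 FPKM in the libraries labelled CD36CKO, and 163, 150 and 125 FPKM in WT. The CD36KO level was 44.98% of WT (log2 -1.14, SE 0.14, limma adjusted p = 0.00345), and that of the libraries labelled CD36CKO was 125% of WT (0.32, adjusted p = 0.153). CD36CKO 1 and CD36CKO 2 lay above every WT library, and CD36CKO 3 lay level with the highest. The Cd36 level of whole hearts thus showed no fall under the CD36CKO label. Whole-heart RNA does not separate cardiomyocytes from other cells, so it cannot decide whether the label holds. Every direction given below for CD36CKO is that of the libraries so labelled.

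Markers of the labelled tissue were high in every library: the 8 cardiomyocyte genes summed to 14252 to 24462 FPKM. Markers of the atria, which are part of the labelled tissue, differed between the groups. The 5 atrial genes summed to 174 to 1386 FPKM in CD36KO, 682 to 2139 FPKM in the libraries labelled CD36CKO and 4233 to 6903 FPKM in WT. Against WT, 5 of 5 fell in CD36KO, beside 6.7% of all genes. In the libraries labelled CD36CKO 2 of 5 fell, beside 7.32% of all genes, and 4 of 5 had an unadjusted limma p under 0.05. The third library labelled CD36CKO (CD36CKO 3) stood apart, since its 9 skeletal muscle genes summed to 1386 FPKM, against 3.87 to 14.6 FPKM in each other library. Ddx3y, on the Y chromosome, reached 9.72 FPKM in CD36KO 3 and 6.19 FPKM in CD36CKO 3, and no other library held more than 0.0820 FPKM.

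A few chains carried most of the collagen message. Together the 5 most abundant collagens made up 69.1% to 72.2% of the summed collagen FPKM of a library. The leading chains were Col4a1 and Col4a2, which form the common type IV molecule of basement membranes, Col1a1, the main chain of type I collagen, and Col3a1, the only chain of type III. Each of these 4 averaged over 100 FPKM across the 9 libraries, and 12 members averaged at least 10 FPKM. At the other end, 19 members averaged under 1 FPKM and were not tested, which left 25 tested members: 8 fibrillar, 6 of basement membranes and 11 others. Among the 19, 11 were still above 3 reads in every library, and 4 (Col10a1, Col6a5, Col6a4 and Col19a1) were at 0 in at least 1. With 0 reads counted, as many as 3 remain possible from counting error alone, which for a 1 kb gene equals 0.128 to 0.192 FPKM.

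**Figure D1:**
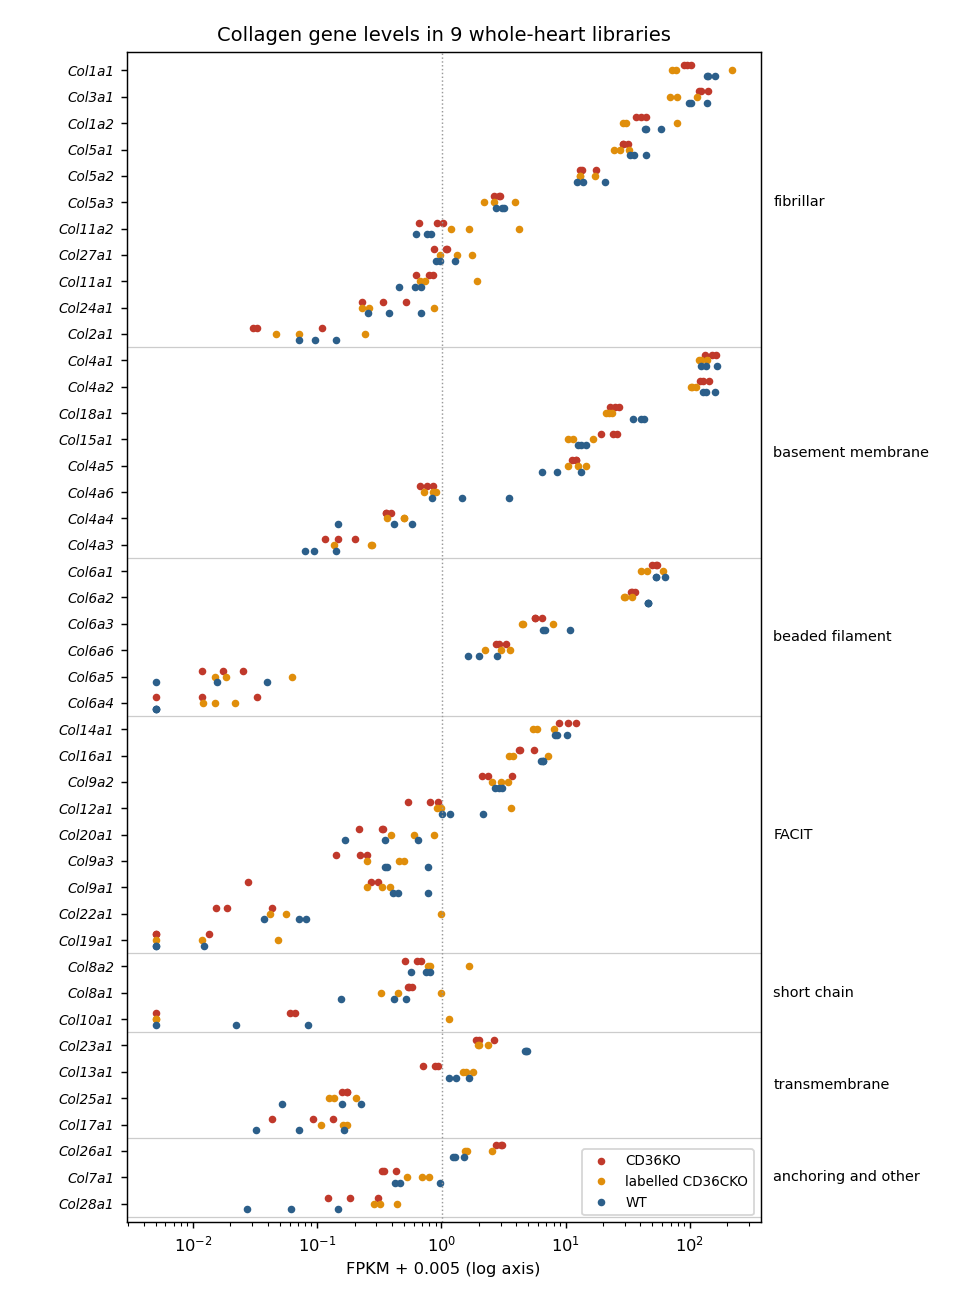
Level of each of the 44 collagen genes in each of the 9 libraries, as FPKM + 0.005 on a log axis, grouped by collagen type. The 4 most abundant members, Col4a1, Col4a2, Col1a1 and Col3a1, lie near or above 100 FPKM in most libraries, and CD36CKO 3 is the highest library for 19 of the 44.

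Against WT, few collagens moved in CD36KO hearts, and none of the 4 most abundant chains was among them. Of the 25 tested members, 5 passed the threshold (20%), against 12.5% of all genes tested: Col15a1 and Col26a1 rose, and Col18a1, Col23a1 and Col6a2 fell. The direction-specific shares of all genes were 5.81% higher and 6.7% lower. The CD36KO and WT libraries did not overlap for 2 members that were higher and 9 that were lower, against 35.2% of all genes in either direction. The median log2 difference of the 25 was -0.10, beside -0.01 over all genes.

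In the libraries labelled CD36CKO, 3 of the 25 members passed against WT (12%), a share close to the 12.7% of all genes. All 3 fell, and they were Col18a1, Col23a1 and Col6a2, where 5.36% of all genes were higher and 7.32% lower. Libraries did not overlap for 2 members that were higher and 6 that were lower, against 32.6% of all genes. The median was -0.22, beside -0.00 over all genes. Both comparisons share the WT libraries, so the recurrence of Col18a1, Col23a1 and Col6a2 does not count as independent evidence. Between CD36KO and the libraries labelled CD36CKO, 2 of 25 passed (8%), against 4.53% of all genes: Col15a1 was higher and Col13a1 lower in CD36KO, beside 2.61% of all genes higher and 1.93% lower. This contrast uses the same knockout libraries again, so the recurrence of Col15a1 is not independent evidence either. Libraries did not overlap for 5 members higher and 2 lower in CD36KO, against 36.6% of all genes, and the median was 0.03.

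These counts moved with single libraries. Without WT 3 they were 8 in CD36KO against WT, 5 in the libraries labelled CD36CKO against WT and 3 between the knockout labels. Of all genes, 3203, 3950 and 1463 were then called in these contrasts, against 1527, 1547 and 553 with all libraries. Without CD36CKO 3 the collagen counts were 6 in CD36KO against WT, 7 in the libraries labelled CD36CKO against WT and 3 between the labels. Of all genes, 1347, 947 and 311 were then called. Without CD36KO 1 or CD36KO 3, 2 collagens passed in CD36KO against WT, where each fit called 405 of all genes. When the mitochondrial and haemoglobin genes were taken out and the libraries rescaled, the median of all genes shifted to 0.10 in CD36KO against WT, to 0.22 in the libraries labelled CD36CKO against WT and to -0.11 between them. The collagens past the threshold were then 2 higher and 1 lower in CD36KO against WT, 1 higher and 2 lower in the libraries labelled CD36CKO against WT, and 0 higher and 1 lower between them. On this scale 1028, 2022 and 361 of all genes were called in these contrasts.

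**Figure D2:**
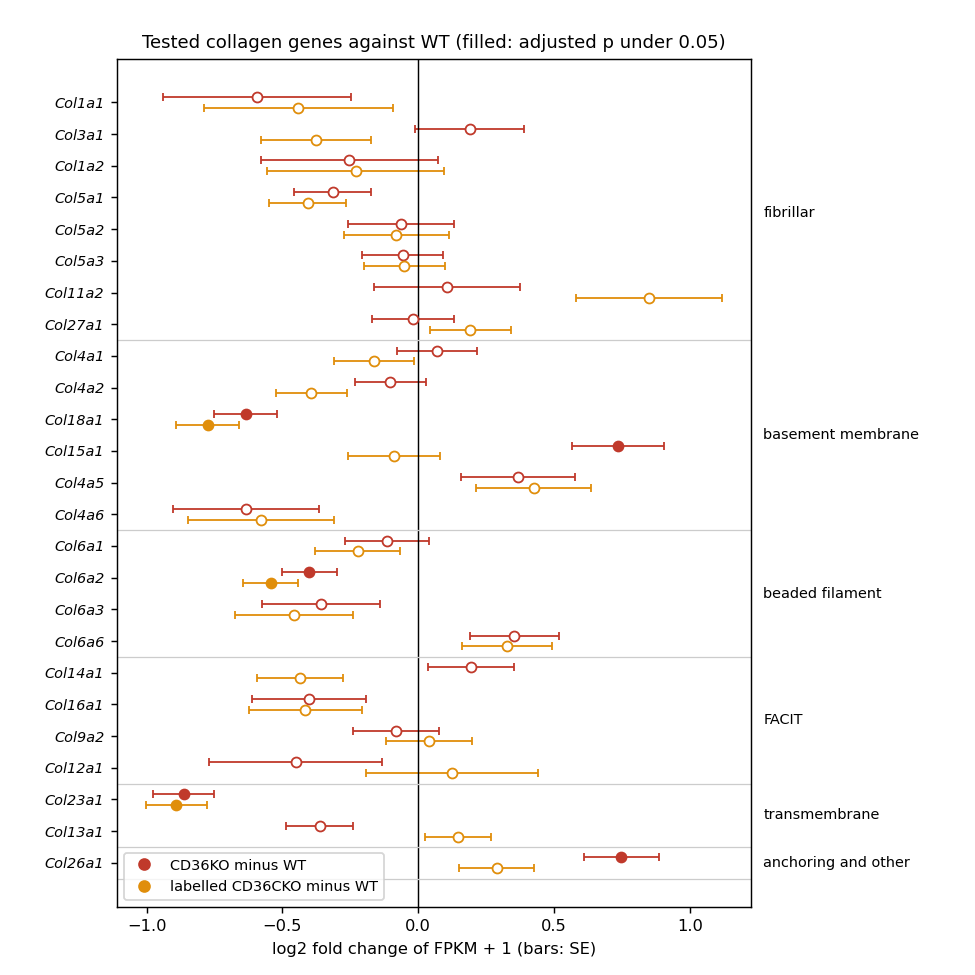
Difference of each of the 25 tested collagens from WT, on the log2(FPKM + 1) scale with SE, for CD36KO and for the libraries labelled CD36CKO. Filled points have a limma adjusted p under 0.05: Col15a1 and Col26a1 above 0 and Col18a1, Col23a1 and Col6a2 below 0 in CD36KO, and Col18a1, Col23a1 and Col6a2 below 0 in the libraries labelled CD36CKO.

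Among the basement membrane collagens, the abundant type IV chains did not pass the threshold in any contrast. Col4a1 averaged 148.2 ± 14.9 FPKM in CD36KO, 126.1 ± 9.44 FPKM in the libraries labelled CD36CKO and 142.0 ± 22.4 FPKM in WT (SD, n = 3 each). Its partner Col4a2 averaged 130.3 ± 11.3 FPKM in CD36KO, 106.2 ± 5.37 FPKM in the libraries labelled CD36CKO and 140.5 ± 17.3 FPKM in WT. The closest of these to the threshold was Col4a2 in the libraries labelled CD36CKO against WT, at log2 -0.40 (SE 0.13, limma adjusted p = 0.0753). The ratio of Col4a1 to Col4a2 was 1.17, 1.10 and 1.14 in CD36KO, 1.19, 1.22 and 1.15 in the libraries labelled CD36CKO, and 1.02, 0.967 and 1.04 in WT, so both knockout labels lay above WT without overlap. This and the other chain ratios below are descriptions with no test: 3 libraries against 3 cannot go below p = 0.1 in an exact two-sided permutation test.

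The Col4a1 and Col4a2 genes stand head to head on chromosome 8, at 11248423 to 11362826 on the minus strand and 11362805 to 11499287 on the plus strand in the table's coordinates (build not stated), and overlap by 22 bases. In RefSeq on build GRCm38.p6 their transcription starts lie 21 bases apart, so their promoter windows of 300 bases (250 before and 50 after the start) share 78 bases. The remaining type IV pairs are arranged the same way: Col4a3 and Col4a4, chains of the network of mature glomerular basement membrane, lie 71 bases apart on chromosome 1, and Col4a5 and Col4a6 lie 1308 bases apart on the X chromosome. Col4a3 and Col4a4 were barely expressed, at 0.0745 to 0.270 and 0.142 to 0.575 FPKM over the 9 libraries.

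Col4a5 and Col4a6, chains that combine in the basement membrane of smooth muscle, did not pass the threshold with all libraries, and their levels had different orders across the genotypes. Col4a5 stood at 11.3, 12.2 and 12.2 FPKM in CD36KO, 12.6, 14.5 and 10.5 FPKM in the libraries labelled CD36CKO, and 8.54, 6.40 and 13.2 FPKM in WT. Col4a6 stood at 0.755, 0.853 and 0.664 FPKM in CD36KO, 0.853, 0.904 and 0.720 FPKM in the libraries labelled CD36CKO, and 1.46, 0.827 and 3.50 FPKM in WT. WT 3 was the highest WT library for both genes and, for Col4a6, the highest of all 9. The ratio of Col4a5 to Col4a6 was 15.0, 14.3 and 18.4 in CD36KO, 14.8, 16.0 and 14.5 in the libraries labelled CD36CKO, and 5.85, 7.73 and 3.76 in WT, with no overlap between WT and either label. Without WT 3, Col4a5 was higher than in WT in CD36KO (log2 0.62, limma adjusted p = 0.0201) and in the libraries labelled CD36CKO (0.68, adjusted p = 0.0126). Without WT 2, which lay inside the range of CD36KO, Col4a6 was lower in CD36KO (-0.92, adjusted p = 0.0475). Col4a6 met the filter, at a mean of 1.17 FPKM over the 9 libraries, only through its level in WT 3. Its differences from WT are therefore no support for a fall. With all libraries the Col4a6 difference was -0.63 (SE 0.27, adjusted p = 0.144) in CD36KO and -0.58 (adjusted p = 0.167) in the libraries labelled CD36CKO.

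The clearest pattern in this class was in the multiplexins, types XV and XVIII, which carry sugar chains and release the fragments restin and endostatin from their ends. Col18a1, the source of endostatin, stood at 22.7, 25.1 and 27.1 FPKM in CD36KO, 21.3, 22.5 and 23.8 FPKM in the libraries labelled CD36CKO, and 35.0, 42.6 and 40.4 FPKM in WT. Every library of both knockout labels lay below every WT library. The difference from WT was -0.63 (SE 0.12, limma adjusted p = 0.0116) in CD36KO and -0.77 (SE 0.12, adjusted p = 0.00497) in the libraries labelled CD36CKO. In CD36KO the call was lost without CD36KO 1 (adjusted p = 0.0544), without both libraries that expressed Ddx3y (0.0598) and with mitochondrial and haemoglobin genes removed (0.0552).

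Col15a1, found in the basement membranes of capillaries and striated muscle, moved the other way in CD36KO. Its level was 26.0, 19.4 and 24.2 FPKM in CD36KO, 10.4, 11.6 and 16.5 FPKM in the libraries labelled CD36CKO, and 14.5, 13.3 and 12.6 FPKM in WT. The CD36KO libraries lay above all 6 others, while CD36CKO 3 was the highest and CD36CKO 1 the lowest of those 6. Col15a1 rose by 0.73 against WT (SE 0.17, adjusted p = 0.0260) and was higher in CD36KO than in the libraries labelled CD36CKO by 0.82 (SE 0.17, adjusted p = 0.0291). Both calls rest on the same CD36KO libraries. The difference between the libraries labelled CD36CKO and WT was -0.09 (adjusted p = 0.747). The call against WT was lost without WT 1, WT 2, CD36KO 1 or CD36KO 3, at adjusted p of 0.0533, 0.0608, 0.0961 and 0.0915, without both libraries that expressed Ddx3y (0.0680) and without a filter on low values (0.0681). The call against the libraries labelled CD36CKO was lost without CD36KO 1, CD36KO 3, CD36CKO 1 or CD36CKO 2, at 0.105, 0.111, 0.0756 and 0.129. It was also lost without both libraries that expressed Ddx3y (0.0743), without a filter (0.0805) and with mitochondrial or haemoglobin genes taken out (0.0749).

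The ratio of Col15a1 to Col18a1 was 1.15, 0.773 and 0.891 in CD36KO, 0.489, 0.515 and 0.692 in the libraries labelled CD36CKO, and 0.415, 0.312 and 0.311 in WT. The 3 groups did not overlap, with CD36KO highest and WT lowest. An opposite-strand gene overlaps each of them (Slc19a1 for Col18a1, mean 1.69 FPKM, and Gm12426 for Col15a1, mean 0.478 FPKM). The libraries were directional per the labels, but the sources used here do not give the use of strand in counting, so reads from such partners cannot be told apart.

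**Figure D3:**
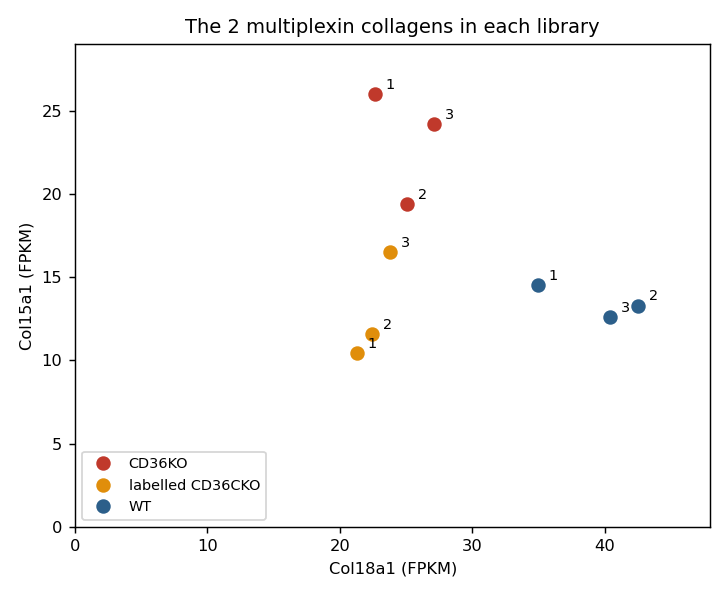
Level of Col15a1 against Col18a1 in each of the 9 libraries, in FPKM on linear axes, with the replicate number beside each point. CD36KO libraries lie highest (Col15a1 at 19.4 FPKM or more), the libraries labelled CD36CKO below them, and WT to the right (Col18a1 at 35.0 FPKM or more).

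The promoters of Col15a1 and Col18a1 are shown because these related genes moved in opposite directions in CD36KO. Each line gives the 250 bases before a RefSeq start on build GRCm38.p6, read 5′ to 3′ on the gene's strand, with capitals for the GC box GGGCGG, the CCAAT box or the TATA box TATAAA on either strand, none of which overlap here. These are chr4:47207762-47208011 on the plus strand for Col15a1 and chr10:77166531-77166780 on the minus strand for the outer of the Col18a1 starts.
Col15a1: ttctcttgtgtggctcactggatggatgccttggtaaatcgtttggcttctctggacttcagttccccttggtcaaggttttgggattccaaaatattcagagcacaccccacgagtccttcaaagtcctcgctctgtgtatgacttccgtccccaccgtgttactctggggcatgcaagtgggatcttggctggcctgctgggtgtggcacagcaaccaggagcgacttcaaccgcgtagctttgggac
Col18a1: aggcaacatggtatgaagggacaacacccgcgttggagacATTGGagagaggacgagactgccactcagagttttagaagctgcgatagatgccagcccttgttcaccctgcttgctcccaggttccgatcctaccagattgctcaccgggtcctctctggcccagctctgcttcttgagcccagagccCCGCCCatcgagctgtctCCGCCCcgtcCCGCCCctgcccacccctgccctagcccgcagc
The Col15a1 window held none of these motifs and had a GC content of 53.6%. The Col18a1 window shown held 3 GC boxes and 1 CCAAT box, with a GC content of 62.0%. The window of the other RefSeq start of Col18a1 (chr10:77113706-77113955) held none of the motifs, with a GC content of 57.6%, so the motifs of the 2 genes differ at 1 of its 2 starts. Over the 38 windows of the 35 collagens with a RefSeq entry, 57.9% held a GC box, 34.2% a CCAAT box and 13.2% a TATA box. Over the 32851 windows of all genes the shares were 32.7%, 33.8% and 12.4%, and the median GC content was 59.0% for collagens and 52.4% for all. A match is a run of letters, not a measured binding site.

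In the fibrillar class, no member passed in any contrast: 0 of 8 tested members in each, with limma. At an unadjusted p under 0.05 there were 0 in CD36KO against WT, 2 in the libraries labelled CD36CKO against WT and 2 between them. The class medians were -0.06 in CD36KO against WT, -0.16 in the libraries labelled CD36CKO against WT and -0.01 between them. Type I collagen is the main tensile collagen of the heart. Its Col1a1 chain stood at 102, 95.6 and 90.5 FPKM in CD36KO, 77.6, 71.9 and 217 FPKM in the libraries labelled CD36CKO, and 137, 141 and 159 FPKM in WT. The CD36KO libraries all lay below WT, and so did CD36CKO 1 and CD36CKO 2, while CD36CKO 3 lay above every other library. The difference from WT was -0.59 (SE 0.35, adjusted p = 0.277) in CD36KO and -0.44 (SE 0.35, adjusted p = 0.399) in the libraries labelled CD36CKO.

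Without CD36CKO 3 the Col1a1 differences were -0.59 (SE 0.12, limma adjusted p = 0.0227) in CD36KO, where only the estimate of spread changed, and -0.95 (SE 0.14, adjusted p = 0.00829) in the other label with n = 2. Col1a2, the partner chain, then fell in the libraries labelled CD36CKO with a difference of -0.69 (adjusted p = 0.0368), against -0.23 (adjusted p = 0.652) with all libraries. Its levels were 40.7, 44.2 and 36.8 FPKM in CD36KO, 30.4, 28.7 and 79.1 FPKM in the libraries labelled CD36CKO, and 44.6, 43.7 and 58.2 FPKM in WT. Again CD36CKO 3 was the highest of all libraries and CD36CKO 1 and 2 the lowest.

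Col3a1, which forms mixed fibrils with type I, did not follow Col1a1 in CD36KO. It stood at 119, 141 and 122 FPKM in CD36KO, 78.5, 69.3 and 114 FPKM in the libraries labelled CD36CKO, and 102, 98.0 and 136 FPKM in WT, so CD36KO overlapped WT. The difference was 0.19 (SE 0.20, adjusted p = 0.553) in CD36KO and -0.38 (SE 0.20, adjusted p = 0.221) in the libraries labelled CD36CKO. The ratio of Col1a1 to Col3a1 was 0.856, 0.681 and 0.743 in CD36KO, 0.989, 1.04 and 1.90 in the libraries labelled CD36CKO, and 1.34, 1.44 and 1.16 in WT. CD36KO lay below WT without overlap, and the other label ran from below WT to above it, with CD36CKO 3 at the top. Col1a1 relative to Col1a2 was also lower in CD36KO, at 2.51, 2.17 and 2.46, with 2.56, 2.50 and 2.75 in the libraries labelled CD36CKO and 3.07, 3.23 and 2.73 in WT. The level of such a ratio depends on the gene lengths of the table (6563 bases for Col1a1 and 12426 for Col1a2), and its order among libraries does not.

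Type V collagen starts fibrils and sets their diameter. Col5a1 averaged 29.8 ± 1.497 FPKM in CD36KO, 28.1 ± 3.998 FPKM in the libraries labelled CD36CKO and 37.6 ± 5.85 FPKM in WT (SD, n = 3 each), with differences from WT of -0.31 (adjusted p = 0.163) in CD36KO and -0.41 (adjusted p = 0.0833) in the libraries labelled CD36CKO. Col5a2 averaged 14.7 ± 2.36 FPKM in CD36KO, 14.5 ± 2.48 FPKM in the libraries labelled CD36CKO and 15.6 ± 4.36 FPKM in WT. Col5a3 and Col27a1 lay between 2.21 and 3.93 FPKM and between 0.867 and 1.77 FPKM over the 9 libraries, and each was highest in CD36CKO 3. Col11a2, a chain of cartilage fibrils, was the one tested member with CD36CKO 3 more than 2 times the highest other library: 0.917, 1.03 and 0.660 FPKM in CD36KO, 1.19, 1.66 and 4.19 FPKM in the libraries labelled CD36CKO, and 0.764, 0.618 and 0.816 FPKM in WT. Its difference from WT in the libraries labelled CD36CKO was 0.85 (SE 0.27, adjusted p = 0.0662), with each of those libraries above every WT library. Col11a2 was tested only because CD36CKO 3 lifted its mean over the 9 libraries to 1.32 FPKM, so this difference is not independent of the filter.

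Summed over the 11 fibrillar chains, the level was 313, 333 and 297 FPKM in CD36KO, 230, 217 and 473 FPKM in the libraries labelled CD36CKO, and 339, 334 and 425 FPKM in WT. The 8 basement membrane chains summed to 340, 311 and 369 FPKM in CD36KO, 270, 299 and 275 FPKM in the libraries labelled CD36CKO, and 330, 314 and 397 FPKM in WT. The fibrillar to basement membrane ratio was therefore near 1 in WT (1.03, 1.06 and 1.07), spread around it in CD36KO (0.922, 1.07 and 0.804), and ran from 0.725 to 1.72 in the libraries labelled CD36CKO, with CD36CKO 3 at the top. The median difference of the basement membrane collagens was -0.02 in CD36KO against WT, but 0.14 with quantile normalization and 0.13 once mitochondrial and haemoglobin genes were taken out. It was -0.28 in the libraries labelled CD36CKO against WT, but -0.0584 with quantile normalization and -0.0021 with those genes taken out. Between CD36KO and that label it was 0.18, or 0.0549 with those genes taken out. The 11 other tested collagens had medians of -0.36 in CD36KO against WT, -0.22 in the libraries labelled CD36CKO against WT, and 0.03 between CD36KO and that label. The second was 0.05 once mitochondrial and haemoglobin genes were taken out. On that scaling the fibrillar median of the libraries labelled CD36CKO was 0.10. The median of all genes was then itself 0.10 in CD36KO against WT, 0.22 in the libraries labelled CD36CKO against WT and -0.11 between them. All 3 class medians of the libraries labelled CD36CKO against WT thus stayed below that of all genes. With quantile normalization the median of all genes was 0.02 in both comparisons with WT.

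Among the remaining types, the largest fall was in a membrane-bound chain. Col23a1, a transmembrane collagen that can be shed from the cell surface, stood at 2.02, 2.66 and 1.91 FPKM in CD36KO, 2.38, 2.01 and 1.98 FPKM in the libraries labelled CD36CKO, and 4.69, 4.85 and 4.80 FPKM in WT. All 6 libraries of both labels lay below WT, with means at 45.9% of WT in CD36KO and 44.4% in the libraries labelled CD36CKO. The differences were -0.86 (SE 0.11, limma adjusted p = 0.00401) in CD36KO and -0.89 (SE 0.11, adjusted p = 0.00236) in the libraries labelled CD36CKO. Both calls were kept in each of the 17 other settings in which Col23a1 was tested. The level rests on 188 to 543 reads per library.

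Col13a1, another transmembrane collagen, found at cell-matrix contacts and neuromuscular junctions, differed between the knockout labels. It stood at 0.928, 0.890 and 0.708 FPKM in CD36KO, 1.81, 1.48 and 1.57 FPKM in the libraries labelled CD36CKO, and 1.66, 1.31 and 1.15 FPKM in WT, so CD36KO lay below every other library. Col13a1 was lower in CD36KO than in the libraries labelled CD36CKO with a difference of -0.51 (SE 0.12, limma adjusted p = 0.0483), and its difference from WT was -0.36 (SE 0.12, adjusted p = 0.0805). With 57 to 179 reads, this call lay at the edge: it was lost without any one library except WT 3, at adjusted p of 0.0517 to 0.170. It was also lost without a filter (0.119) and without both libraries that expressed Ddx3y (0.264). The 2 other transmembrane chains, Col25a1 and Col17a1, stayed under 0.23 FPKM in all libraries.

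The 250 bases before the RefSeq starts of Col23a1 (chr11:51289670-51289919, plus strand) and Col13a1 (chr10:61979109-61979358, minus strand) on GRCm38.p6 are shown as those of the transmembrane members that passed, marked as above.
Col23a1: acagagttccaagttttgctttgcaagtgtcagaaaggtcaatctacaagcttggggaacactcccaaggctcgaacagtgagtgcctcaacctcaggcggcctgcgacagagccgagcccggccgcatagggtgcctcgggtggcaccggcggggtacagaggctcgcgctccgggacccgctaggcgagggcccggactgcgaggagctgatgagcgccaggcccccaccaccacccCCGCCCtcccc
Col13a1: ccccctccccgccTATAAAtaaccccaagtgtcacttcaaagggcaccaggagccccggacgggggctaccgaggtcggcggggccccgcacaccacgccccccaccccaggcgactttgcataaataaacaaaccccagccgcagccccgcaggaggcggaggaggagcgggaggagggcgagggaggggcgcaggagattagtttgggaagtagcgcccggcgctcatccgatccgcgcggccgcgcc
Col23a1 has 1 GC box close to the start, and Col13a1 has 1 TATA box far from it. Their GC contents were 66.0% and 68.8%.

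Col26a1, a short collagen first described in testis and ovary, was the other member to rise in CD36KO. It stood at 2.76, 2.99 and 3.05 FPKM in CD36KO, 1.59, 1.54 and 2.54 FPKM in the libraries labelled CD36CKO, and 1.23, 1.52 and 1.28 FPKM in WT. The CD36KO libraries were above all others, and their mean was 218% of WT. The rise was 0.75 (SE 0.14, adjusted p = 0.0125), and it was lost only without CD36KO 3 (adjusted p = 0.0521) among 17 other settings. Against WT the libraries labelled CD36CKO differed by 0.29 (adjusted p = 0.180), and CD36KO differed from them by 0.46 (SE 0.14, adjusted p = 0.0929), or by 0.61 without CD36CKO 3 (adjusted p = 0.0305).

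Type VI collagen, whose chains assemble 1 of each into the monomer, had a single chain past the threshold. Col6a2 stood at 36.1, 33.7 and 33.9 FPKM in CD36KO, 29.2, 30.3 and 34.4 FPKM in the libraries labelled CD36CKO, and 46.0, 45.8 and 46.0 FPKM in WT. WT lay above all 6 others and varied by only 0.0973 FPKM (SD). Col6a2 fell with a difference of -0.40 in CD36KO (SE 0.10, limma adjusted p = 0.0335) and with a difference of -0.54 in the libraries labelled CD36CKO (SE 0.10, adjusted p = 0.0123). The first call was lost without WT 1, WT 2, any CD36KO library or CD36CKO 2 (adjusted p 0.0566 to 0.119) and with quantile normalization (0.107). It was also lost with only the libraries of both groups in the fit (0.0670) and without both libraries that expressed Ddx3y (0.134). The second was lost without CD36CKO 2 (0.0634), with quantile normalization (0.0533) and with only the libraries of both groups in the fit (0.0564). Both were lost with mitochondrial and haemoglobin genes removed (0.224 and 0.149).

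Its partners gave no call. Col6a1, on chromosome 10 about 85.2 kb from Col6a2, stood at 52.9, 54.5 and 49.2 FPKM in CD36KO, 40.6, 45.3 and 61.2 FPKM in the libraries labelled CD36CKO, and 52.9, 53.9 and 63.5 FPKM in WT. Col6a3, the largest chain, averaged 5.91 ± 0.497 FPKM in CD36KO, 5.61 ± 1.94 FPKM in the libraries labelled CD36CKO and 8.03 ± 2.37 FPKM in WT (SD, n = 3 each). Its differences from WT were near those of Col6a2 in size, with a wider SE. They were -0.36 (SE 0.22, limma adjusted p = 0.296) in CD36KO and -0.46 (SE 0.22, adjusted p = 0.174) in the libraries labelled CD36CKO. The ratio of Col6a1 to Col6a2 was 1.47, 1.62 and 1.45 in CD36KO, 1.39, 1.497 and 1.78 in the libraries labelled CD36CKO, and 1.15, 1.18 and 1.38 in WT, so WT lay below both without overlap. Col6a6 averaged 2.98 FPKM in CD36KO, 2.94 FPKM in the libraries labelled CD36CKO and 2.14 FPKM in WT, and Col6a5 and Col6a4 stayed under 0.06 FPKM throughout.

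Of the fibril-associated collagens, 0 of 4 tested passed in any contrast with limma. At an unadjusted p under 0.05 there were 0 in CD36KO against WT, 1 in the libraries labelled CD36CKO against WT and 1 between them. Col14a1 and Col16a1, which associate with collagen fibrils, averaged 10.5 and 4.70 FPKM in CD36KO, 6.46 and 4.83 FPKM in the libraries labelled CD36CKO, and 9.01 and 6.48 FPKM in WT. Without CD36CKO 3, both fell in the libraries labelled CD36CKO against WT, with a difference of -0.59 for Col14a1 (limma adjusted p = 0.0484) and -0.69 for Col16a1 (adjusted p = 0.0203). Col14a1 was then also higher in CD36KO than in that label by 0.78 (adjusted p = 0.0337), against 0.63 (adjusted p = 0.0559) with all libraries. Col9a2 ranged from 2.13 to 3.70 FPKM over the 9 libraries, and Col12a1 from 0.538 to 3.63 FPKM with its top value in CD36CKO 3.

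**Figure D4:**
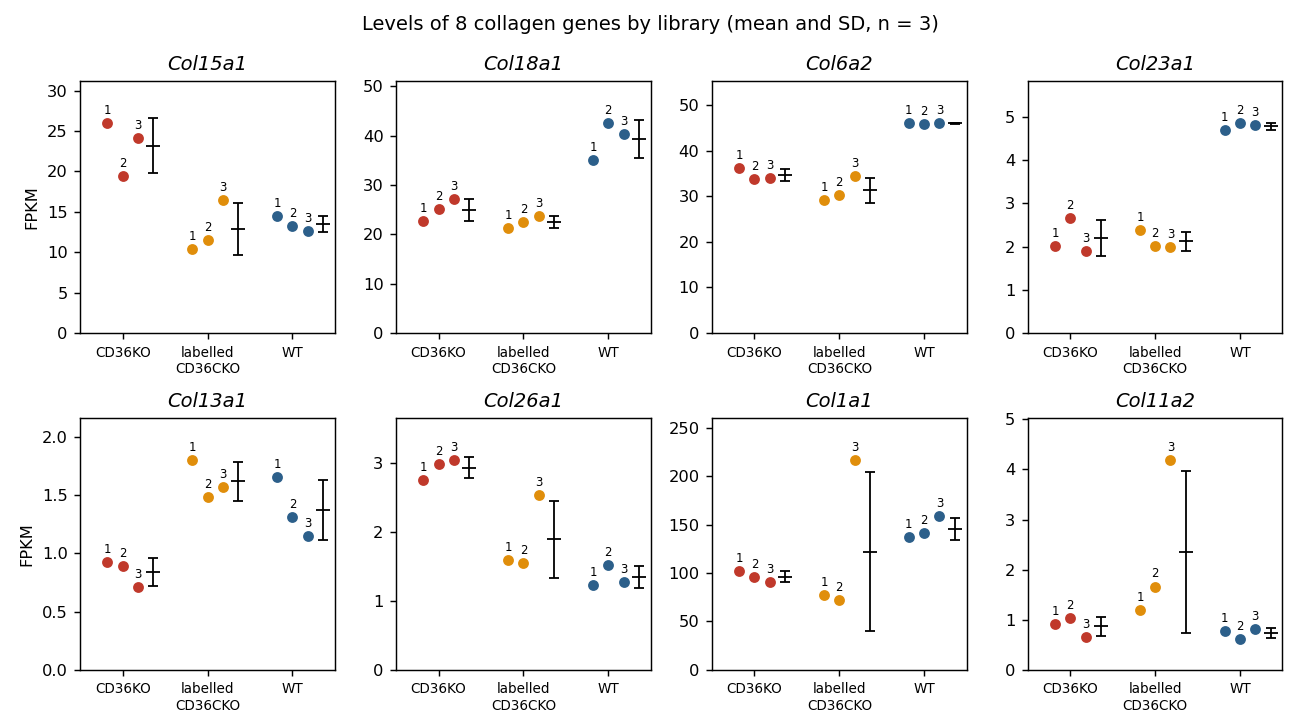
Level in each library, in FPKM with the group mean and SD (n = 3), of the 6 collagens past the threshold in any contrast and of Col1a1 and Col11a2, in which CD36CKO 3 stands far above the other libraries. For Col18a1, Col23a1 and Col6a2 all 6 libraries of the knockout labels lie below WT, and for Col15a1 and Col26a1 the CD36KO libraries lie above all others.

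Single libraries stood high for many collagens, CD36CKO 3 above all. It was the highest of the 9 libraries for 19 of the 44 members and for 8 of the 25 tested, where it was the highest library for 8.29% of all genes tested. WT 3 was the highest of the 9 for 7 of the 25, and the highest WT library for 7 of the 8 tested fibrillar chains. In CD36CKO 3, all 8 tested fibrillar chains and 9 of the 11 others, but 2 of the 6 basement membrane chains, were above the mean of CD36CKO 1 and CD36CKO 2. The share of all genes was not computed for the WT 3 counts or for these counts against CD36CKO 1 and CD36CKO 2. They are therefore not read as particular to collagens or to a class. For 6 members CD36CKO 3 held at least 2 times the highest other library: Col11a2, Col11a1, Col8a2, Col10a1, Col22a1 and Col19a1. Of these Col11a2 alone was tested, 1 of 25, against 0.328% of all genes tested. Since Col11a2 met the filter of 1 FPKM only through its level in CD36CKO 3, this count is no support for an excess among tested collagens.

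The largest excess was in chains that hearts barely express. Col10a1, a short chain of hypertrophic cartilage, had 60 reads in CD36CKO 3 (1.15 FPKM) and at most 5 elsewhere. The opposite-strand gene Nt5dc1 overlaps Col10a1 at a higher mean level (1.86 against 0.151 FPKM), and reads from it cannot be told apart, as above. Col22a1, a chain of tissue junctions such as that between muscle and tendon, had 152 reads (0.988 FPKM) and at most 13 elsewhere. In Col12a1, found in tendon and fascia, CD36CKO 3 held 3.63 FPKM, against 0.922 and 0.994 FPKM in CD36CKO 1 and 2. Type II collagen, the main fibril of cartilage, had 37 reads of Col2a1 there and 4 to 23 elsewhere.

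Beside these values, 6 of the 9 skeletal muscle markers were tested, and Mylpf, a fast muscle light chain, held 685 FPKM in CD36CKO 3 and 0.923 to 3.21 FPKM elsewhere. The 9 cartilage genes summed to 6.23 FPKM in CD36CKO 3, inside the 4.97 to 7.53 FPKM of the other libraries, with Matn1 and Snorc listed at 0. The 12 fibroblast genes summed to 326 FPKM in CD36CKO 3 and to 288 to 454 FPKM elsewhere. The part of skeletal muscle transcripts in the collagen levels of CD36CKO 3 was not tested.

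**Figure D5:**
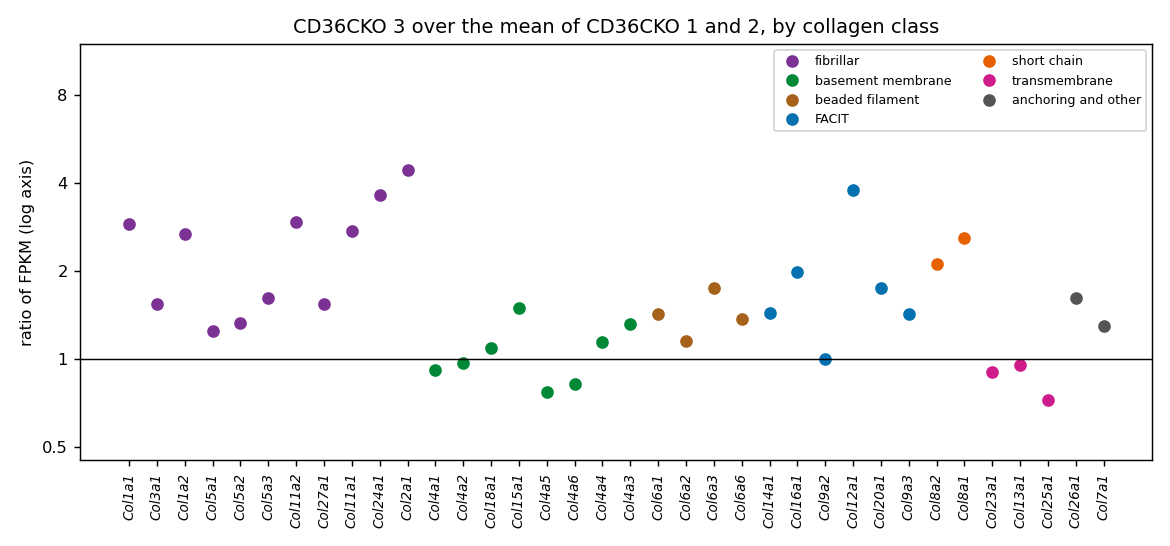
Ratio of CD36CKO 3 to the mean of CD36CKO 1 and CD36CKO 2 on a log axis, for the 36 collagens above 3 reads in all 9 libraries, by class. All 8 tested fibrillar chains lie above 1, with Col1a1 at 2.90 and Col1a2 at 2.68, while Col4a1 (0.920) and Col4a2 (0.966) lie just below it.

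Enzymes and chaperones build procollagen in the endoplasmic reticulum. Of 22 tested, 1 rose and 4 fell in CD36KO against WT, where 5.81% of all genes rose and 6.7% fell. In the libraries labelled CD36CKO against WT, 0 rose and 2 fell, where 5.36% of all genes rose and 7.32% fell, so these 2 of 22 were no larger a share than the 12.7% of all genes called. The median difference of these 22 genes was -0.09 in CD36KO against WT and -0.12 in the libraries labelled CD36CKO against WT, beside -0.01 and -0.00 over all genes. P3h1, which hydroxylates prolines of the collagen helix, stood at 10.05, 11.5 and 9.73 FPKM in CD36KO, 10.1, 10.2 and 11.98 FPKM in the libraries labelled CD36CKO, and 14.4, 16.0 and 18.2 FPKM in WT, with every WT library above all others. It fell in both, with a difference of -0.59 (SE 0.12, adjusted p = 0.0165) in CD36KO and -0.55 (SE 0.12, adjusted p = 0.0209) in the libraries labelled CD36CKO. Its complex partner Crtap fell with a difference of -0.53 in the libraries labelled CD36CKO (adjusted p = 0.0205). In CD36KO, the collagen chaperone Fkbp10 fell with a difference of -0.54 (adjusted p = 0.0265) and the lysyl hydroxylase Plod3 with a difference of -0.44 (adjusted p = 0.0403), while the collagen galactosyltransferase Colgalt2 rose by 0.58 (adjusted p = 0.0349). The fourth to fall was Ppib (-0.49, adjusted p = 0.0484), the cyclophilin of the P3h1 complex. Between CD36KO and the libraries labelled CD36CKO 0 of the 22 passed with limma, and 2 had an unadjusted p under 0.05.

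Of 16 tested genes that process, assemble and cross-link collagen outside the cell, 1 rose and 3 fell in CD36KO, and 0 rose and 4 fell in the libraries labelled CD36CKO, where 12.5% of all genes passed in CD36KO and 12.7% in the libraries labelled CD36CKO. Their median difference was -0.16 in CD36KO against WT and -0.29 in the libraries labelled CD36CKO against WT. Tgm2, the tissue transglutaminase that cross-links matrix proteins, stood at 36.7, 34.5 and 38.2 FPKM in CD36KO, 49.1, 46.8 and 34.4 FPKM in the libraries labelled CD36CKO, and 84.8, 96.2 and 97.4 FPKM in WT. Both labels lay below WT without overlap, with a difference of -1.32 (SE 0.15, adjusted p = 0.00247) in CD36KO and -1.09 (SE 0.15, adjusted p = 0.00309) in the libraries labelled CD36CKO. Pcolce, the enhancer of procollagen C-proteinase, fell with a difference of -0.65 (adjusted p = 0.0391) in CD36KO and -0.80 (adjusted p = 0.0209) in the libraries labelled CD36CKO. Fbln2, a basement membrane linker, fell with a difference of -0.43 (adjusted p = 0.0375) in CD36KO and -0.58 (adjusted p = 0.0145) in that label. Dcn, which encodes the fibril-binding proteoglycan decorin, rose in CD36KO by 0.55 (adjusted p = 0.0384), and Fn1 (fibronectin) fell in the libraries labelled CD36CKO with a difference of -0.72 (adjusted p = 0.0224). Between the knockout labels 0 of the 16 passed with limma, and 3 had an unadjusted p under 0.05.

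Of 11 degradation genes tested, 1 fell in CD36KO and 2 fell in the libraries labelled CD36CKO, beside 6.7% of all genes lower in CD36KO and 7.32% in the libraries labelled CD36CKO. These few calls do not set the list apart from all genes. It had medians of -0.18 in CD36KO against WT and -0.14 in the libraries labelled CD36CKO against WT. Timp4, a metalloproteinase inhibitor enriched in heart, stood at 1.31, 1.08 and 1.20 FPKM in CD36KO, 2.45, 4.83 and 3.90 FPKM in the libraries labelled CD36CKO, and 4.52, 3.99 and 4.83 FPKM in WT. It fell in CD36KO with a difference of -1.31 against WT (SE 0.17, adjusted p = 0.00405) and was lower than in the libraries labelled CD36CKO with a difference of -1.07 (adjusted p = 0.0130), the 1 call of the list in that contrast. The collagenase Mmp14 and the inhibitor Timp2 fell in the libraries labelled CD36CKO, with a difference of -0.64 (adjusted p = 0.0409) and -0.40 (adjusted p = 0.0474). The 5 collagen receptors tested had medians of 0.14 in CD36KO against WT and -0.08 in the libraries labelled CD36CKO against WT. Of these, Ddr1 fell in CD36KO (-0.58, adjusted p = 0.0381), and 0 passed in the other contrasts with limma, where 0 (libraries labelled CD36CKO against WT) and 1 (CD36KO against that label) had an unadjusted p under 0.05.

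Of 14 tested partners of collagen in basement membranes, 1 rose and 2 fell in CD36KO, and 3 fell in the libraries labelled CD36CKO, beside 12.5% of all genes called in CD36KO and 12.7% in the libraries labelled CD36CKO. The medians were -0.01 in CD36KO against WT and 0.03 in the libraries labelled CD36CKO against WT. Pxdn, the peroxidase that forms the sulfilimine cross-link of type IV collagen, stood at 33.9, 35.6 and 38.6 FPKM in CD36KO, 20.7, 24.3 and 27.4 FPKM in the libraries labelled CD36CKO, and 20.2, 18.5 and 21.8 FPKM in WT. It rose in CD36KO by 0.81 (SE 0.12, limma adjusted p = 0.00713) and was higher than in the libraries labelled CD36CKO by 0.57 (adjusted p = 0.0361), the 1 call there. Lamb3, a chain of epithelial laminin, fell with a difference of -0.71 (adjusted p = 0.0162) in CD36KO and -0.52 (adjusted p = 0.0451) in the libraries labelled CD36CKO. Lama4, of vascular laminin, fell in the libraries labelled CD36CKO with a difference of -0.33 (adjusted p = 0.0371).

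Of 16 tested regulators of matrix genes, 1 rose and 1 fell in CD36KO, and 2 rose and 2 fell in the libraries labelled CD36CKO. The 2 of 16 in CD36KO equal the 12.5% of all genes called, and 12.7% of all genes were called in the libraries labelled CD36CKO. The medians were -0.04 in CD36KO against WT and 0.02 in the libraries labelled CD36CKO against WT. Tgfb3, a TGF-β ligand, stood at 5.18, 5.65 and 5.29 FPKM in CD36KO, 6.15, 6.73 and 7.07 FPKM in the libraries labelled CD36CKO, and 11.4, 11.4 and 11.7 FPKM in WT. It fell without overlap in both labels, with a difference from WT of -0.97 (SE 0.09, adjusted p = 0.00152) in CD36KO and -0.71 (SE 0.09, adjusted p = 0.00217) in the libraries labelled CD36CKO. Pdgfb, a mural cell ligand, rose in CD36KO by 0.45 (adjusted p = 0.0404). In the libraries labelled CD36CKO, the fibroblast transcription factor Tcf21 rose by 0.50 (adjusted p = 0.0344), and it was lower in CD36KO than in that label, with a difference of -0.80 (adjusted p = 0.0124). Ccn2, a matricellular target of TGF-β, fell in the libraries labelled CD36CKO with a difference of -1.90 (adjusted p = 0.0304), where WT 3 (179 FPKM) stood far above WT 1 and WT 2 (55.2 and 40.0 FPKM).

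Of these 35 calls of pathway genes, 6 were kept whichever single library was left out: Tgm2 and Tgfb3 in both comparisons with WT, and Timp4 and Pxdn in CD36KO against WT. The other 29 were each lost without at least 1 library, at adjusted p up to 0.163.

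Markers of the cells that make collagen follow, to be read beside the 12.5% of all genes called in CD36KO against WT and the 12.7% called in the libraries labelled CD36CKO against WT. Of 12 fibroblast genes tested, 1 rose and 3 fell in each comparison with WT, and their sum was 340 to 396 FPKM in CD36KO, 288 to 329 FPKM in the libraries labelled CD36CKO and 393 to 454 FPKM in WT. This list shares Dcn, Fbln2 and Tcf21 with the pathway lists above, so their calls are counted again here. The gene that rose was Dcn in CD36KO and Tcf21 in the libraries labelled CD36CKO, and Fbln2 was among the 3 that fell in each. Among 8 epicardial genes, 1 rose and 3 fell in CD36KO and 3 fell in the libraries labelled CD36CKO. Their sum was 36.3 to 46.5 FPKM in CD36KO, 31.8 to 39.7 FPKM in the libraries labelled CD36CKO and 46.2 to 59.3 FPKM in WT. Endocardial genes summed to 48.9 to 63.0 FPKM in CD36KO, 47.6 to 66.1 FPKM in the libraries labelled CD36CKO and 75.1 to 107 FPKM in WT, with 2 of 5 lower in CD36KO and 3 of 5 lower in the libraries labelled CD36CKO.

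Endothelial and mural genes moved in both directions. Of 11 endothelial genes, 2 rose and 1 fell in CD36KO and 2 fell in the libraries labelled CD36CKO, and the sum was 515 to 598 FPKM in CD36KO, 466 to 512 FPKM in the libraries labelled CD36CKO and 445 to 519 FPKM in WT. Of 10 mural genes tested, 3 rose and 1 fell in CD36KO and 2 rose and 1 fell in the libraries labelled CD36CKO. The mural list summed to 275 to 534 FPKM in CD36KO, 372 to 537 FPKM in the libraries labelled CD36CKO and 382 to 900.1 FPKM in WT. Macrophage genes (2 of 6 rose in CD36KO) summed to 33.2 to 40.7 FPKM in CD36KO, 27.1 to 31.0 FPKM in the libraries labelled CD36CKO and 35.0 to 50.8 FPKM in WT. Erythroid genes summed to 2922 to 4952 FPKM in CD36KO, 4168 to 5280 FPKM in the libraries labelled CD36CKO and 5618 to 8836 FPKM in WT, and 0 of 4 tested passed with limma, where 4 in CD36KO and 0 in the libraries labelled CD36CKO had an unadjusted p under 0.05.

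Of the 8 cardiomyocyte genes, 1 rose and 1 fell in CD36KO and 1 rose in the libraries labelled CD36CKO, and the 2 Schwann cell, 2 cartilage and 6 skeletal muscle genes tested gave 0 calls against WT with limma (1 cartilage gene, in the libraries labelled CD36CKO, had an unadjusted p under 0.05). Of 6 macrophage genes, 0 passed in the libraries labelled CD36CKO against WT, where 1 had an unadjusted p under 0.05. Between CD36KO and the libraries labelled CD36CKO, 1 of 12 fibroblast and 1 of 8 epicardial genes were higher, beside 2.61% of all genes. Lower in CD36KO were 2 of 12 fibroblast (Tcf21, given above, among them), 1 of 8 epicardial, 1 of 5 endocardial and 1 of 10 mural genes, beside 1.93% of all genes. The endothelial, macrophage, erythroid, cardiomyocyte, atrial, cartilage, Schwann cell and skeletal muscle lists gave 0 calls there with limma, and held 1, 3, 1, 1, 2, 0, 0 and 0 genes with an unadjusted p under 0.05. The mural, macrophage, endothelial, endocardial, fibroblast, epicardial and erythroid lists held no marker at 0 in any library, while the skeletal muscle genes Myog, Pvalb and Myh4 and the neural crest gene Foxd3 were at 0 in at least 1. The part of fibroblast, epicardial, endocardial or atrial content in the falls of Col18a1, Col23a1 and Col6a2, which moved in the same direction, was not tested.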

How the data were processed

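Whole-heart RNA of 9 mouse libraries was sequenced by the submitters. Directional libraries were made with dUTP from poly-A RNA, per the labels' protocols. The authors deposited FPKM values for 56748 genes with gene length, position and biotype, per the file headers. The submitters' processing notes name TopHat2, HISAT, HISAT2 and CASAVA with no version. The sources used here give neither the counter, the genome build nor the use of strand in counting. Only 3 of the 44 collagens have the same coordinates in a GRCm38 annotation. Because FPKM is relative to library size, more reads in 1 group of transcripts lower the values of the rest.

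Multiplying FPKM by gene length gave steps of 1 read per library, with 100% of values under 1000 reads within 0.01 of a whole number. These reads served for depth and low counts only.

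Genes averaging at least 1 FPKM over the 9 libraries (12206) were tested on the log2(FPKM + 1) scale by limma 3.58.1 (R 4.3.3). The fit held all libraries, gave each genotype its mean and left 6 residual degrees of freedom, to which empirical Bayes moderation with an intensity trend contributed 3.68. Two-sided p-values were Benjamini-Hochberg adjusted over all tested genes, and the threshold was 0.05. The code was tested on simulated data. Values are mean ± SD over 3 libraries. Groups came from the titles of the samples, and no library was left out of the main fit. Summaries and figures used Python 3.11.15, pandas 2.3.3, numpy 2.4.6 and matplotlib 3.10.9. Promoter windows (250 bases before and 50 after a start) came from RefSeq on GRCm38.p6.

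Named collagens are those past the threshold in any contrast, the 10 with the highest mean and the partner chains of types I, IV and VI. Pathway genes named are those past the threshold, at most 4 per list and contrast by smallest p, and Ppib, Mylpf, Matn1, Snorc, Myog, Pvalb, Myh4 and Foxd3 were named after their values were seen. Some genes that this rule names are not reported here. Other collagens with values were added as members of the family. The lists were for collagen synthesis, processing, degradation, receptors, basement membrane partners and matrix regulators, with marker lists for 12 cell types. The members, lists and rules were chosen with earlier results of these data known. Alternatives covered the pseudocount, the filter, the scaling, the libraries in the fit, the replicate number as a block and library weights.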

Additional observations from a re-analysis of the deposited data

How the results depend on the processing

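Over 18 other settings, the named collagens gave 852 combinations of gene, contrast and setting: 786 stayed on the same side of the threshold, 43 lost a call, 23 gained one and 0 turned a called direction. The number of collagens past the threshold in CD36KO against WT (5) was 3 at a mean of at least 5 FPKM, 3 with mitochondrial and haemoglobin genes removed, 2 without both libraries with Y-linked expression, 14 with library weights, and 2 to 8 with 1 library left out. In the libraries labelled CD36CKO against WT (3) it was 5 without both Y-linked libraries, 13 with library weights, and 2 to 7 with 1 library left out. Between CD36KO and the libraries labelled CD36CKO (2) it was 0 without a filter, 1 with mitochondrial and haemoglobin genes removed, 0 without both Y-linked libraries, 5 with library weights, and 0 to 3 with 1 library left out. The collagen counts are to be read beside those of all genes. With library weights 6849, 6124 and 2417 of all genes were called in the 3 contrasts, and without both Y-linked libraries 200, 412 and 48. With 1 library left out, 405 to 3203, 330 to 3950 and 29 to 1463 were called. The estimation of the library weights did not reach its convergence tolerance, so the counts with library weights describe an unfinished fit.

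Of 162 class medians in other settings, 22 moved by more than the spread between replicates. For CD36KO against WT, the basement membrane median (-0.02) became 0.14 with quantile normalization and 0.13 on the scale without mitochondrial or haemoglobin genes. It was -0.10 to 0.0913 with 1 library left out. The median of other collagens (-0.36) was -0.14 with library weights and -0.38 to -0.15 with 1 library left out. For the libraries labelled CD36CKO against WT, the fibrillar median (-0.16) was -0.38 at a mean of at least 5 FPKM, 0.10 without mitochondrial or haemoglobin genes, -0.37 without both Y-linked libraries, and -0.37 to -0.0112 with 1 library left out. The basement membrane median (-0.28) was -0.16 at 5 FPKM, -0.0584 with quantile normalization and -0.0021 without those genes, and -0.36 to -0.17 with 1 library left out. The median of other collagens (-0.22) was -0.44 at 5 FPKM, -0.0270 with quantile normalization and 0.0497 without those genes, -0.39 without both Y-linked libraries, and -0.39 to -0.10 with 1 library left out. Between CD36KO and the libraries labelled CD36CKO, the fibrillar median (-0.01) was 0.22 without both Y-linked libraries, the basement membrane median (0.18) was 0.0549 without mitochondrial or haemoglobin genes, and the median of other collagens (0.03) was 0.22 without both Y-linked libraries and -0.0140 to 0.21 with 1 library left out. The median of all genes moved too. Without mitochondrial or haemoglobin genes it was 0.10 in CD36KO against WT, 0.22 in the libraries labelled CD36CKO against WT and -0.11 between them. With quantile normalization it was 0.02 in both comparisons with WT, and at 5 FPKM it was -0.06 and -0.07. The causes were not tested.

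With the replicate number as a block, the collagen counts were 4, 3 and 1 in the 3 contrasts, the second unchanged, and the calls lost were Col6a2 in CD36KO against WT (limma adjusted p = 0.0665) and Col13a1 between CD36KO and the libraries labelled CD36CKO (0.0593). Libraries with the same number correlated at -0.433 to 0.141 in their deviations from the group means, and those with different numbers at -0.288 to 0.349. These correlations showed no pairing by number. With 3 libraries per group they cannot decide whether the numbers mark a shared litter or batch. A CD36CKO arm of 2 libraries was assumed to vary like the other groups. Depth limits the 19 members under 1 FPKM, several of which rest on fewer than 20 reads in a library, and Col13a1.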
